A study of Arabidopsis thaliana with 12 samples.

Results

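The 10 genes described here encode Arabidopsis thaliana proteins that restrain or drive cell death: LSD1, BAP1, BAP2, BON1, BON3, BI-1, MC1, MC2, ACD6 and ACD11. They were taken by name from the 28496 genes of the deposited leaf RNA-seq table, by their known roles and not by a threshold on its values. This choice, and that of the gene lists below, was made with earlier results of these data known. All 10 passed the floor of at least 10 reads in at least 1 genotype, as did 18816 genes in all. The study compared 4 genotypes with 3 leaf samples each. The sadr1-26.6 and sadr1-30.4 lines carry mutations in SADR1, which encodes a TIR-NB-LRR immune receptor (TNL), in the ADR1-L2 DV background, and came from a screen for plants in which the ADR1-L2 DV phenotype was suppressed. ADR1-L2 DV is the adr1-l2-4 mutant with a transgene for ADR1-L2 D484V under the native ADR1-L2 promoter. ADR1-L2 is an RPW8-type helper NLR (RNL), and the D484V change in its MHD motif mimics activation. Col-0 is the untransformed wild type and carries neither adr1-l2-4 nor the transgene, both of which the other 3 genotypes share. ADR1-L2 DV stands for 1 transgenic line here and each suppressor for 1 mutant line, and the age of the plants was not given in the sources used here.

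Hypersensitive cell death in plants is held in check by several groups of proteins. LSD1 is a zinc finger protein that stops lesions from spreading beyond their site of origin. Of the metacaspases, MC1 promotes hypersensitive death and MC2 counters MC1. BON1 and BON3 are copines, calcium-dependent phospholipid-binding proteins that keep immune receptors in check, and BAP1 and BAP2 are C2-domain proteins that bind BON1 and also inhibit cell death. BI-1 (BAX inhibitor 1) is a survival protein of the endoplasmic reticulum membrane. ACD6, an ankyrin-repeat membrane protein, promotes salicylic acid signalling and death when overactive, whereas ACD11 is a sphingolipid transfer protein whose loss causes spontaneous death.

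The table gave 1 combined value per gene and genotype, with no value for any sample. Consequently there was no spread between samples, no test was made, and a sample that stood apart from the other 2 of its genotype could not be seen. The values were whole numbers that summed to 20013826 in sadr1-26.6, 20613029 in sadr1-30.4, 21277026 in ADR1-L2 DV and 20148132 in Col-0, and they are called reads below. Ratios are log2 ratios of reads scaled by median-of-ratios size factors, with a pseudocount of 1, and "past 2-fold" means a log2 ratio of at least 1 or at most -1. Each interval in brackets is an exact 95% Clopper-Pearson interval that takes the values as read counts. It covers counting error only, not variation between plants. ADR1-L2 itself had 3254 reads in sadr1-26.6, 1855 in sadr1-30.4, 8543 in ADR1-L2 DV and 1148 in Col-0, in which transgene and endogenous gene were not separated. PR1, the salicylic acid marker, had 5947 reads in sadr1-26.6, 2005 in sadr1-30.4, 24106 in ADR1-L2 DV and 11475 in Col-0. The 4 leaf markers, which encode photosynthesis proteins, summed to 1412169 reads in sadr1-26.6, 1468151 in sadr1-30.4, 1082300 in ADR1-L2 DV and 1376034 in Col-0. The root and seed markers summed to at most 2 reads in any genotype.

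The members differed widely in level. Per kilobase of the longest transcript, ACD6 had 9618 scaled reads in ADR1-L2 DV and 9639 in Col-0, the highest of the 10, followed by BI-1 with 3111 in ADR1-L2 DV and 2489 in Col-0. In ADR1-L2 DV, MC2 stood at rank 3 with 632 scaled reads per kilobase, against rank 7 in Col-0, and BAP1 at rank 7 with 421, against rank 9 in Col-0. Neither ADR1-L2 DV rank was resolved by counting intervals. That of MC2 (598 to 666) overlapped those of BON1 (592 to 655) and MC1 (552 to 626). That of BAP1 (388 to 456) overlapped that of ACD11 (449 to 518). In Col-0 the order below BI-1 ran from MC1 (566) through ACD11 (492), BON1 (398), LSD1 (265), MC2 (263), BAP2 (193) and BAP1 (78.3) to BON3 (10.7). Among neighbours in this order, the counting intervals of LSD1 (239 to 293) and MC2 (240 to 288) overlapped, those of MC1 (528 to 607) and ACD11 (455 to 532) met at their ends, and the rest were apart. BON3 was last in every genotype. The lowest scaled value of each of the 10 genes lay in sadr1-30.4, except that LSD1 was lowest in sadr1-26.6 with scaling by total reads; of all measured genes, 26.8% were lowest in sadr1-30.4. The highest lay in ADR1-L2 DV for 6 of them and in Col-0 for BAP2, BON3, ACD6 and ACD11, the last 2 of which were highest in ADR1-L2 DV with scaling by total reads.

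**Figure D1:**
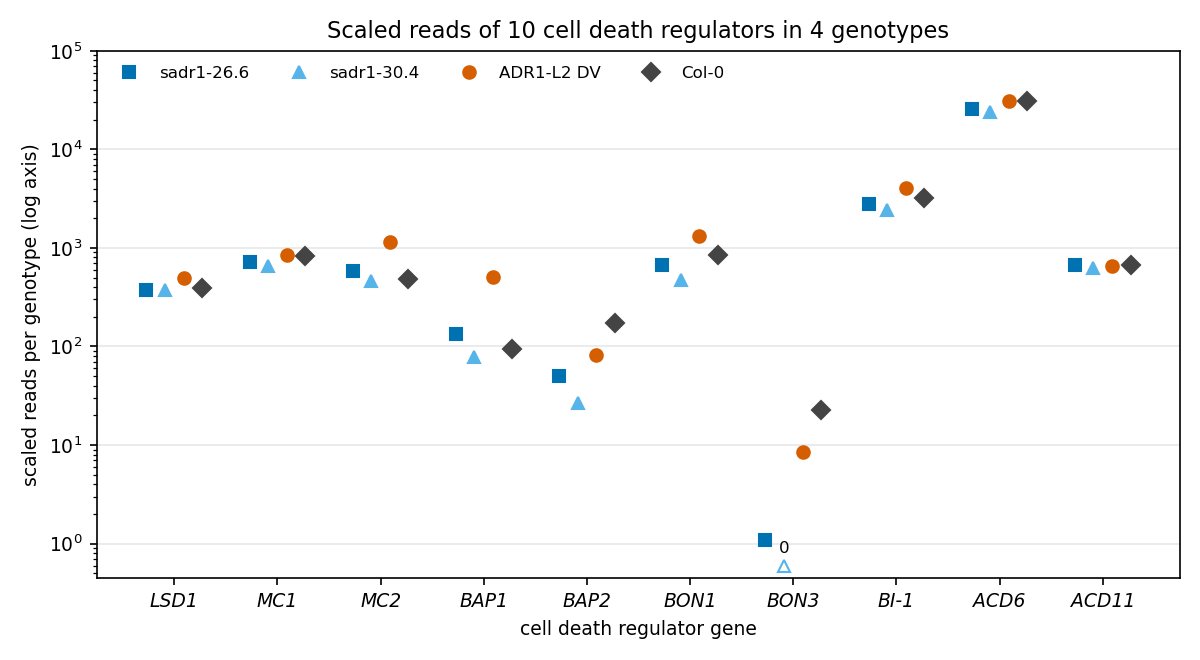
Scaled reads of the 10 regulators (log axis) in sadr1-26.6, sadr1-30.4, ADR1-L2 DV and Col-0, 1 combined value per genotype; the open triangle marks the 0 reads of BON3 in sadr1-30.4. BAP1 and MC2 stand above the other 3 genotypes in ADR1-L2 DV, whereas BAP2 and BON3 are highest in Col-0.

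The 250 bases before the annotated start of 3 members, BAP2, BON1 and MC2, are printed because they are the members, of 9 searched, that hold a W box, the element bound by WRKY transcription factors. They read 5′ to 3′ on the gene's own strand in the RefSeq TAIR10.1 genome, and capitals mark the core of each W box (TTGACC or TTGACT on either strand). The stretches are chr2:18847836-18848085 for BAP2, chr5:24859342-24859591 for BON1 and chr4:12890263-12890512 for MC2, all on the minus strand, and none overlaps an annotated exon.
BAP2: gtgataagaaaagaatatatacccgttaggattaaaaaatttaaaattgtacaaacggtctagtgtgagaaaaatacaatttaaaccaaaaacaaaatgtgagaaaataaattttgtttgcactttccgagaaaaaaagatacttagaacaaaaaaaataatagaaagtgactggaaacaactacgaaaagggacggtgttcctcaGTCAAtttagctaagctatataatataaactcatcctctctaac
BON1: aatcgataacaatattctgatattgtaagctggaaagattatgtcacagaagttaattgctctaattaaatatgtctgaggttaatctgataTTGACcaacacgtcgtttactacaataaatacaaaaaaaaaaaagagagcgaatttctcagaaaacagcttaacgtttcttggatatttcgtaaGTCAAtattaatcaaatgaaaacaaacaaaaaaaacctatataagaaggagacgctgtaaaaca
MC2: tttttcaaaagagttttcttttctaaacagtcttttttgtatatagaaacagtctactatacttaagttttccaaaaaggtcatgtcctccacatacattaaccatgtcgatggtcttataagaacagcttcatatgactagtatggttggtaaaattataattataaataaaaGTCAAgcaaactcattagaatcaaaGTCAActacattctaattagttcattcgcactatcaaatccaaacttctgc
In the 300-base window that adds the first 50 bases of the transcript, BON1 had 3 W boxes, MC2 had 2, BAP2 had 1 and the other 6 of the 9 members searched had none, so 3 of 9 held the element, against 32.4% of 26709 promoters. The shorter core TTGAC, which every W box contains, lay in 4 members, the fourth being BI-1, against 50.5% of promoters. Also on either strand, TGACG, the TGA element, which can overlap the W box core, lay in LSD1 and BI-1, against 23.1% of promoters. CGCGT, the CAMTA element, lay in LSD1 and BON3, against 8.75%.

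In ADR1-L2 DV compared to Col-0, 2 members, BAP1 and MC2, were past 2-fold higher and another 2, BAP2 and BON3, were past 2-fold lower. Of all measured genes, 8.62% were past 2-fold higher and 8.21% past 2-fold lower. The median log2 ratio of the 10 members was 0.19, or 0.32 without BON3, and that of all measured genes 0.01. Scaling by total reads instead moved the median ratio of all genes by 0.21 and gave 2143 genes higher and 1116 lower, against 1622 higher and 1544 lower with median-of-ratios scaling, so ratios near 0 in this comparison have no firm direction. In leaf RNA, less transcript per cell and fewer cells that make it cannot be told apart.

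BAP1 (AT3G61190, chromosome 3, 22650159 to 22651636) had the largest ratio. It had 123 reads in sadr1-26.6, 75 in sadr1-30.4, 599 in ADR1-L2 DV and 91 in Col-0. ADR1-L2 DV was thus far above the other 3 genotypes, at 5.34 times the scaled Col-0 value, a log2 ratio of 2.42 [2.11 to 2.76] that 2.13% of measured genes exceeded. BAP2 (AT2G45760, chromosome 2, 18846944 to 18847835), its paralogue with 58.4% identical coding sequence, ran the other way. It had 46 reads in sadr1-26.6, 26 in sadr1-30.4, 96 in ADR1-L2 DV and 165 in Col-0, and its log2 ratio of ADR1-L2 DV over Col-0 was -1.06 [-1.45 to -0.70]. This value was just past 2-fold and became -0.85 with scaling by total reads.

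BON1 (AT5G61900, chromosome 5, 24855661 to 24859341), the copine that both BAP proteins bind, had 621 reads in sadr1-26.6, 452 in sadr1-30.4, 1538 in ADR1-L2 DV and 804 in Col-0. The ADR1-L2 DV value was 1.56 times that of Col-0, at a log2 ratio of 0.65 [0.52 to 0.77]. BON1 lies wholly within AT5G61910 on the same strand, which had 766 reads in ADR1-L2 DV and 481 in Col-0, and how reads of the shared stretch were assigned was not given in the sources used here. BON3 (AT1G08860, chromosome 1, 2841969 to 2846350), a second copine, was close to the counting floor with 10 reads in ADR1-L2 DV and 22 in Col-0, a log2 ratio of -1.33 [-2.67 to -0.29]. BON2, the remaining copine, which shares 80.1% of its coding sequence with BON1, had 1246 reads in ADR1-L2 DV and 935 in Col-0 (log2 ratio 0.12).

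MC2 (AT4G25110, chromosome 4, 12887474 to 12890262), the metacaspase that counters MC1, had 532 reads in sadr1-26.6, 443 in sadr1-30.4, 1355 in ADR1-L2 DV and 462 in Col-0. Its ADR1-L2 DV value was 2.40 times that of Col-0, at a log2 ratio of 1.26 [1.11 to 1.42], and 6.32% of measured genes had a larger ratio. MC1 (AT1G02170, chromosome 1, 411664 to 413554), which promotes hypersensitive death, had 661 reads in sadr1-26.6, 639 in sadr1-30.4, 1000 in ADR1-L2 DV and 788 in Col-0. The interval of its ADR1-L2 DV over Col-0 ratio held 0, at 0.05 [-0.08 to 0.19]. With scaling by total reads the MC1 ratio became 0.26, above that interval. MC1 overlaps AT1G02180 on the other strand by 33 bases, a gene with at most 47 reads. The pair of metacaspases thus differed in the size of this ratio. Per kilobase of transcript, their counting intervals overlapped in ADR1-L2 DV (598 to 666 for MC2 and 552 to 626 for MC1). In Col-0 MC2 lay below MC1 (240 to 288 for MC2 and 528 to 607 for MC1).

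LSD1 (AT4G20380, chromosome 4, 11004503 to 11006968), the brake on lesion spread, had 343 reads in sadr1-26.6, 357 in sadr1-30.4, 579 in ADR1-L2 DV and 372 in Col-0. Its log2 ratio of ADR1-L2 DV over Col-0 was 0.35 [0.16 to 0.54], and 25.2% of measured genes lay above it. BI-1 (AT5G47120, chromosome 5, 19135952 to 19138025) had 2566 reads in sadr1-26.6, 2322 in sadr1-30.4, 4752 in ADR1-L2 DV and 3109 in Col-0, with a log2 ratio of 0.32 [0.26 to 0.39] in the same comparison. Both were thus modestly higher in ADR1-L2 DV and did not reach 2-fold.

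ACD6 (AT4G14400, chromosome 4, 8294165 to 8299195), the most abundant member, had 23825 reads in sadr1-26.6, 22870 in sadr1-30.4, 36394 in ADR1-L2 DV and 29829 in Col-0. Its log2 ratio of ADR1-L2 DV over Col-0 was -0.00, and 0.21 with scaling by total reads. ACD11 (AT2G34690, chromosome 2, 14629986 to 14632082) had 619 reads in sadr1-26.6, 608 in sadr1-30.4, 771 in ADR1-L2 DV and 643 in Col-0, with a log2 ratio of -0.03 that became 0.18 with scaling by total reads. Neither gene therefore had a direction that held under both scalings, and ACD11 had the narrowest range of the 10 over the 4 genotypes, at 0.09 on the log2 scale.

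**Figure D2:**
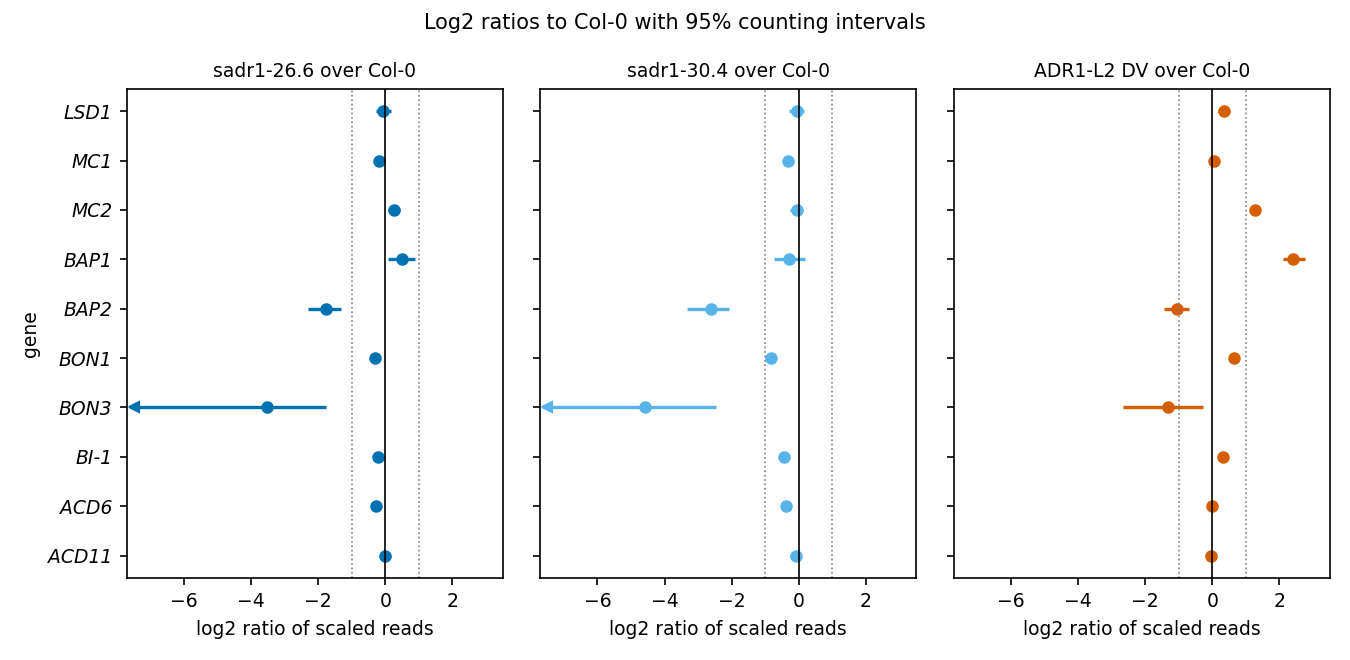
Log2 ratios of the 10 regulators (horizontal axis) to Col-0 in sadr1-26.6, sadr1-30.4 and ADR1-L2 DV, with exact 95% counting intervals as bars, arrows where an interval runs past the axis, and the 2-fold limits as dotted lines. In ADR1-L2 DV over Col-0, BAP1 (2.42) and MC2 (1.26) lie beyond the upper limit and BAP2 (-1.06) and BON3 (-1.33) beyond the lower one.

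The suppressor lines were next compared to ADR1-L2 DV, to see how each regulator stood in these SADR1 mutant lines. Whether the lines also differ from ADR1-L2 DV at other loci was not tested here. In sadr1-26.6, 3 members (BAP1, MC2 and BON3) were past 2-fold lower than in ADR1-L2 DV, and none was past 2-fold higher; of all measured genes 9.17% were past 2-fold lower and 7.6% higher. In sadr1-30.4 the lower members were 5, with BAP2 and BON1 added, and again none was higher, beside 10.9% of measured genes lower and 9.48% higher. The members' median log2 ratio was -0.62 in sadr1-26.6 and -1.04 in sadr1-30.4, and that of all measured genes was -0.02 in sadr1-26.6 and -0.00 in sadr1-30.4. Without BON3, which was close to the counting floor, the members' median was -0.54 in sadr1-26.6 and -0.75 in sadr1-30.4. With scaling by total reads, 943 genes were higher and 2447 lower in sadr1-26.6, against 1430 higher and 1726 lower with median-of-ratios scaling. The same change gave 1200 higher and 2782 lower in sadr1-30.4, against 1783 higher and 2053 lower. These comparisons share the ADR1-L2 DV samples with each other and with the comparison to Col-0, so their values are not independent.

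BAP1 was 3.81-fold lower in sadr1-26.6 than in ADR1-L2 DV (log2 ratio -1.93 [-2.23 to -1.66]) and 6.50-fold lower in sadr1-30.4 (-2.70 [-3.08 to -2.37]). MC2 sat at the limit in sadr1-26.6, where it was 2.004-fold lower (log2 interval -1.15 to -0.86), and beyond it in sadr1-30.4, at -1.33 [-1.49 to -1.18]. BON1 lay just inside the limit in sadr1-26.6, at -0.96 [-1.10 to -0.83], and beyond it in sadr1-30.4, at -1.48 [-1.64 to -1.33]. The overlapping AT5G61910 had smaller ratios, of -0.33 in sadr1-26.6 and -0.43 in sadr1-30.4.

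The other members were then read against ADR1-L2 DV in the same way, with BON3 described below. BAP2, which was already lower in ADR1-L2 DV than in Col-0, had log2 ratios of -0.71 in sadr1-26.6 and -1.57 [-2.29 to -0.97] in sadr1-30.4. BI-1 had -0.54 in sadr1-26.6 and -0.75 in sadr1-30.4, LSD1 had -0.41 in both, MC1 had -0.25 in sadr1-26.6 and -0.36 in sadr1-30.4, and ACD6 had -0.27 in sadr1-26.6 and -0.39 in sadr1-30.4. The counting intervals of these genes lay below 0 in both lines. ACD11 was the exception in both lines, at 0.03 in sadr1-26.6, which became -0.23 with scaling by total reads, and at -0.06 in sadr1-30.4.

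Compared to Col-0, the suppressor lines had 2 members past 2-fold lower, BAP2 and BON3 in either line, and none past 2-fold higher. Of all measured genes, 3.13% were past 2-fold lower and 2.46% higher in sadr1-26.6, and 2.97% lower and 1.93% higher in sadr1-30.4. The members' median log2 ratio was -0.21 in sadr1-26.6 and -0.35 in sadr1-30.4, beside 0.00 over all measured genes in either comparison. Without BON3 it was -0.20 in sadr1-26.6 and -0.31 in sadr1-30.4. Both comparisons use the same Col-0 samples.

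BAP2, the inhibitor of cell death that pairs with BON1, had 46 reads in sadr1-26.6 and 165 in Col-0, a log2 ratio of -1.77 [-2.29 to -1.31], and 0.717% of measured genes lay below it. In sadr1-30.4 it had 26 reads, a log2 ratio of -2.63 [-3.33 to -2.07] to Col-0, and 0.244% of measured genes lay below it. The scaled values were thus 3.40-fold lower in sadr1-26.6 and 6.19-fold lower in sadr1-30.4 than in Col-0, and the ADR1-L2 DV value lay between those of the suppressors and Col-0. BON3 had 1 read in sadr1-26.6 and 22 in Col-0, a ratio of 0.0472 (0.00114 to 0.292). In sadr1-30.4 it had 0 reads, which makes it at least 7.37-fold lower than in Col-0 when 3 reads are taken as the upper limit of a count of 0 and the 22 reads as exact; the counting interval, which also covers the error of the 22 reads, ended at a log2 ratio of -2.46. Against the 10 reads of ADR1-L2 DV, its ratio was 0.127 (0.00293 to 0.893) in sadr1-26.6, and in sadr1-30.4 it was at least 2.74-fold lower on the same terms, with an interval that ended at -0.88. PR1 was also lower in the suppressors than in Col-0, at log2 ratios of -0.89 in sadr1-26.6 and -2.52 in sadr1-30.4, and since the Col-0 value is a combined one, whether all 3 Col-0 samples carried the higher level was not tested.

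The other members stood nearer to Col-0. BAP1 had 123 reads in sadr1-26.6 and 91 in Col-0, a log2 ratio of 0.49 [0.09 to 0.90], while its ratio in sadr1-30.4, with 75 reads, was -0.28 [-0.75 to 0.17]. MC2 was at 0.26 [0.08 to 0.44] in sadr1-26.6 and at -0.07 in sadr1-30.4. BON1 was at -0.32 in sadr1-26.6 and at -0.84 [-1.01 to -0.67] in sadr1-30.4, the largest difference from Col-0 among the members that stayed within 2-fold. BI-1 had -0.22 in sadr1-26.6 and -0.43 in sadr1-30.4, ACD6 had -0.27 in sadr1-26.6 and -0.39 in sadr1-30.4, and MC1 had -0.20 in sadr1-26.6 and -0.31 in sadr1-30.4. LSD1 had -0.06 in sadr1-26.6 and -0.07 in sadr1-30.4. ACD11 had -0.00, or 0.00 with TMM scaling, in sadr1-26.6 and -0.09 in sadr1-30.4. The nearest to Col-0 were ACD11 and LSD1 in sadr1-26.6, and LSD1 and MC2 in sadr1-30.4.

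**Figure D3:**
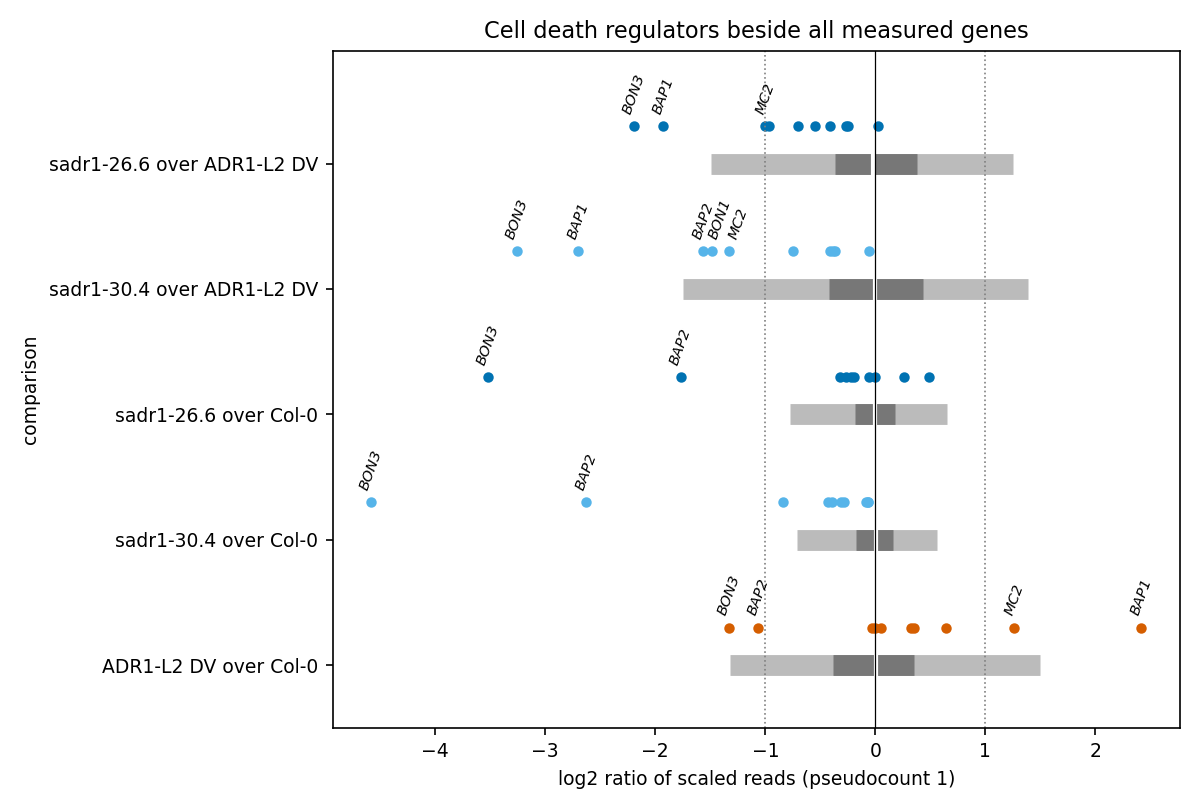
Log2 ratios of the 10 regulators (points, named where past 2-fold) above the distribution of all 18816 measured genes in each comparison, where the dark bar spans the quartiles and the light bar the 5th to 95th percentiles. BAP2 and BON3 lie to the left of the light bar in both suppressors over Col-0; the BON3 points at 1 or 0 reads depend on the pseudocount.

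The families of these genes were then described as a whole, from lists of known members. Of 9 metacaspases, 7 were measured, and 2 of these, MC2 and MC5, were past 2-fold higher in ADR1-L2 DV than in Col-0, with none lower. Of all measured genes, 8.62% were past 2-fold higher and 8.21% lower. MC5 rested on 10 reads in ADR1-L2 DV and 1 in Col-0, at a log2 ratio of 2.22 with an interval of 0.22 to 8.47. It met the floor of 10 reads in ADR1-L2 DV only, so it could not have been counted as lower there. MC9 had 92 reads in ADR1-L2 DV and 45 in Col-0 (log2 ratio 0.73), MC8 had 203 and 136 (0.29), MC4 had 2102 and 1776 (-0.05, or 0.16 with scaling by total reads) and MC3 had 580 and 689 (-0.54), whereas MC6 and MC7 had at most 6 reads in any genotype. Compared to Col-0 the suppressors had 1 metacaspase past 2-fold, MC8 in sadr1-30.4, with 60 reads against 136 in Col-0 (-1.18 [-1.65 to -0.74]). In that line 2.97% of all measured genes were past 2-fold lower than in Col-0. In ADR1-L2 DV over Col-0 the 7 measured genes thus lay on both sides of 0, 5 above and 2 below, or 6 above and 1 below with scaling by total reads.

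Among the LSD1-type zinc finger genes, LOL1 and LOL2 differed in direction. LOL1, a promoter of cell death that acts opposite to LSD1, had 995 reads in sadr1-26.6, 777 in sadr1-30.4, 527 in ADR1-L2 DV and 730 in Col-0. It was thus lowest where LSD1 was highest, with log2 ratios of -0.76 in ADR1-L2 DV over Col-0, 1.26 in sadr1-26.6 over ADR1-L2 DV and 0.84 in sadr1-30.4 over ADR1-L2 DV. LOL2 had 89 reads in sadr1-26.6, 73 in sadr1-30.4, 199 in ADR1-L2 DV and 99 in Col-0, with a log2 ratio of 0.71 in ADR1-L2 DV over Col-0. Of BI-1 and its relatives, none of the 5 measured genes was past 2-fold in that comparison, beside 8.62% of all measured genes higher and 8.21% lower. LFG5 (0.15), LFG2 (0.40) and AT5G47130 (0.77), the gene next to BI-1 with 68.7% identical coding sequence, lay above 0, LFG4 had 5 reads in ADR1-L2 DV and 9 in Col-0, and LFG3 had 0 reads in every genotype.

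The relatives of ACD11 differed more than ACD11 itself. GLTP3, a glycolipid transfer protein gene, had 72 reads in sadr1-26.6, 84 in sadr1-30.4, 27 in ADR1-L2 DV and 61 in Col-0, a log2 ratio of -1.43 [-2.18 to -0.79] in ADR1-L2 DV over Col-0. AT4G39670, with 54.2% of its coding sequence identical to ACD11, had 59 reads in sadr1-26.6, 67 in sadr1-30.4, 191 in ADR1-L2 DV and 135 in Col-0. Its log2 ratio to Col-0 was -1.13 in sadr1-26.6 and -1.01 in sadr1-30.4, against 0.21 in ADR1-L2 DV. GLTP1 stayed near 0 at 0.23 in ADR1-L2 DV over Col-0, and GLTP2 had at most 2 reads.

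**Figure D4:**
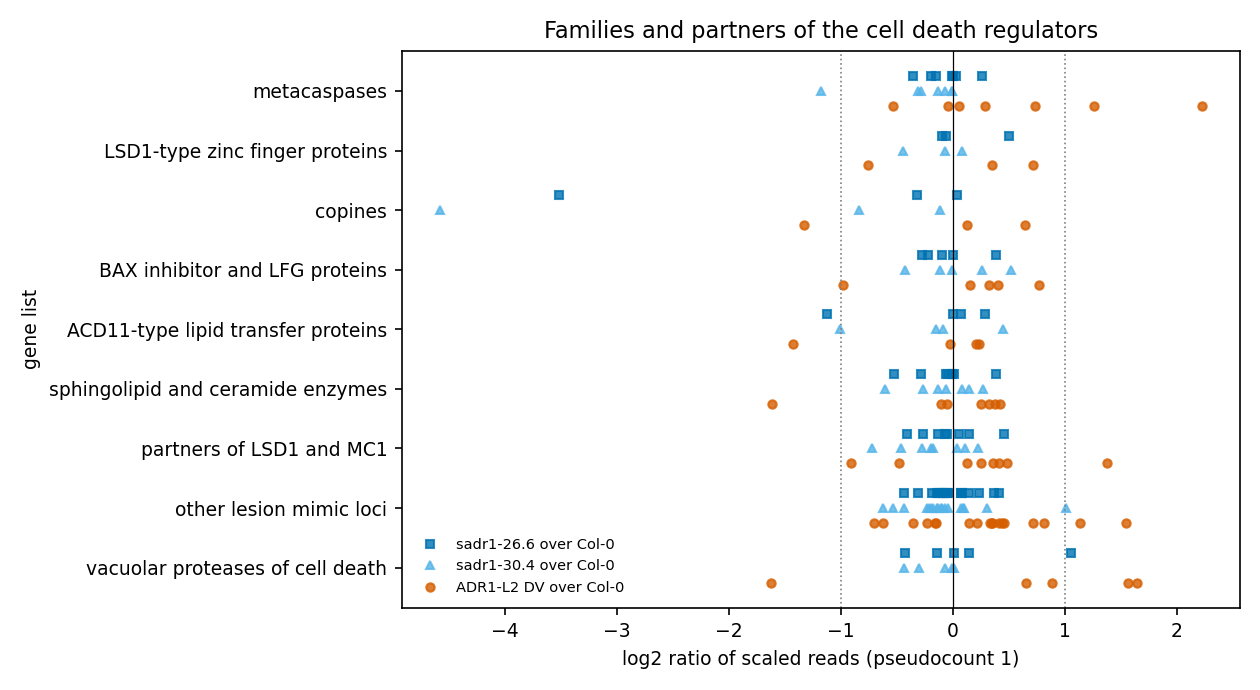
Log2 ratios to Col-0 of each measured gene (1 point per gene) in 9 gene lists, the 10 regulators included in their families, for sadr1-26.6, sadr1-30.4 and ADR1-L2 DV; dotted lines are the 2-fold limits. The ADR1-L2 DV points run from -0.54 to 2.22 among metacaspases and from -1.62 to 1.65 among vacuolar proteases, and the copine points at the far left are BON3 at 1 and 0 reads.

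A wider set of 57 genes tied to these regulators, the relatives above included, was read in the same way. It added partners of LSD1 and MC1, sphingolipid enzymes, other loci whose mutants form lesions, and vacuolar proteases. Of its 53 measured genes, 6 were past 2-fold higher and 3 past 2-fold lower in ADR1-L2 DV than in Col-0, beside 8.62% and 8.21% of all measured genes, with a median log2 ratio of 0.29. Among the 6 higher, MC5 and the vacuolar protease gene alpha-VPE met the floor of 10 reads in ADR1-L2 DV only. These genes could not have been counted as lower there than in Col-0, nor as higher in a suppressor than in ADR1-L2 DV. In sadr1-26.6 over ADR1-L2 DV 5 were higher and 7 lower, beside 7.6% of all measured genes higher and 9.17% lower, with a median of -0.35. In sadr1-30.4 over ADR1-L2 DV 6 were higher and 11 lower, beside 9.48% higher and 10.9% lower, with a median of -0.38. Among these 6, LFG4 met the floor in sadr1-30.4 only. Compared to Col-0, 1 was higher and 1 lower in sadr1-26.6, beside 2.46% higher and 3.13% lower, and 1 was higher and 2 lower in sadr1-30.4, beside 1.93% higher and 2.97% lower.

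Named genes of this set past 2-fold included enzymes and membrane proteins of known role. RBOHF, an NADPH oxidase that makes superoxide, had 321 reads in sadr1-26.6, 251 in sadr1-30.4, 1097 in ADR1-L2 DV and 345 in Col-0, a log2 ratio of 1.38 in ADR1-L2 DV over Col-0. Gamma-VPE, a vacuolar processing enzyme with caspase-1-like activity, had 3712 reads in sadr1-26.6, 3880 in sadr1-30.4, 13895 in ADR1-L2 DV and 3840 in Col-0 (1.57), so that only ADR1-L2 DV stood apart. Beta-VPE had 134 reads in ADR1-L2 DV and 339 in Col-0 (-1.62), and alpha-VPE had 14 in ADR1-L2 DV and 3 in Col-0 (1.65), with an interval of 0.09 to 4.37. The vacuolar processing enzymes thus differed from each other in direction. MLO12 (138 reads in ADR1-L2 DV and 38 in Col-0, log2 ratio 1.55) and MLO6 (130 and 48, 1.13), relatives of the mildew susceptibility gene MLO2, were higher in ADR1-L2 DV. MIPS1, which makes myo-inositol phosphate and whose loss causes lesions, had 12716 reads in sadr1-26.6, 15077 in sadr1-30.4, 5430 in ADR1-L2 DV and 13598 in Col-0 (-1.61).

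The gene patterns most like that of BON3, the member with the widest range, were sought among 12236 genes with at least 200 reads in at least 1 genotype. Likeness was the Euclidean distance between log2 scaled values centred on each gene's mean over the 4 genotypes, a description with 4 points. The range of BON3 rests on counts of 1 and 0 and so on the pseudocount: with a pseudocount of 5, its log2 ratio of sadr1-30.4 over Col-0 was -2.48, and that of BAP1 in sadr1-30.4 over ADR1-L2 DV was -2.64. The nearest was GSTU4, a glutathione transferase gene, with 58 reads in sadr1-26.6, 24 in sadr1-30.4, 189 in ADR1-L2 DV and 272 in Col-0, at a distance of 1.07. FMO1, which makes the mobile immune signal N-hydroxypipecolic acid, came next with 51 reads in sadr1-26.6, 24 in sadr1-30.4, 533 in ADR1-L2 DV and 277 in Col-0 (1.41). ABCG40, an abscisic acid transporter gene, had 445 reads in sadr1-26.6, 219 in sadr1-30.4, 591 in ADR1-L2 DV and 2590 in Col-0 (1.75). All 3 were lowest in sadr1-30.4 and, like BON3, lower in the suppressors than in Col-0, which a search for like patterns favours. FMO1, unlike BON3, was higher in ADR1-L2 DV than in Col-0.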

How the data were processed

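Leaf mRNA of 12 samples, 3 for each of 4 genotypes, was sequenced after Kapa mRNA library preparation; each sample held 2 leaves from at least 2 plants, and the 3 samples came from independent experiments. The submitters' processing notes name the TAIR10 genome; no aligner, counting tool, strand setting or way of combining samples is given in the sources used here. The authors deposited 1 column per genotype headed RPKM, but its values are whole numbers that sum to 20013826 or more per genotype, and they were treated as read counts. If they were divided by gene length, the ratios would stand, except for the effect of the pseudocount. The levels per kilobase would not stand. Nor would the counting intervals, the minimum of reads or the bound for BON3, which all take the values as read counts. The authors' own log2 fold change and FDR p-value columns, 6 in all, were not used.

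Values were scaled by median-of-ratios size factors over the 4 genotypes (0.923 in sadr1-26.6, 0.964 in sadr1-30.4, 1.17 in ADR1-L2 DV and 0.959 in Col-0). Ratios used a pseudocount of 1, and genes needed 10 reads in at least 1 genotype. With 1 value per genotype, no test was made and counting intervals are exact Clopper-Pearson (SciPy 1.17.1) for ratios and exact Poisson for levels. The interval procedure for ratios was run on simulated Poisson counts only. That check could not show whether the values here spread as Poisson counts do. Alternatives were scaling by total reads, TMM (edgeR 4.0.16), pseudocounts of 0.5 and 5, a fold of 1.5, no minimum and a minimum of 100. Gene models and sequences came from RefSeq TAIR10.1, in which 28009 of 28496 identifiers and all 82 listed genes were found. Identity was computed over aligned coding sequences; protein sequences and the promoter of 1 member were not used here.

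The members and lists were chosen with earlier results of these data known. All members and their family members were named, with up to 3 genes in each direction past 2-fold in ADR1-L2 DV over Col-0 from each other list, and the 3 genes nearest in pattern to the member with the widest range.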

Additional observations from a re-analysis of the deposited data

How the results depend on the processing

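With TMM scaling and with pseudocounts of 0.5 and 5, each of the 50 log2 ratios of members stayed within its counting interval. With scaling by total reads 28 did and 22 did not, 21 of them in comparisons with ADR1-L2 DV and the other ACD6 in sadr1-26.6 over Col-0 (-0.31), and the members past 2-fold lower in ADR1-L2 DV than in Col-0 numbered 1 (BON3) in place of 2. With a minimum of 100 reads, which BON3 cannot reach, BAP2 alone, 1 member in place of 2, was past 2-fold lower in each of the 3 mutant genotypes than in Col-0. The share of all genes at that minimum is not given here, so this count has nothing to be read against. With a fold of 1.5, 5 members in place of 3 were lower in sadr1-26.6 than in ADR1-L2 DV, beside 16.9% of measured genes. All other counts of members past the fold stayed within 1.5 times. Within that margin, the 3 members lower in sadr1-26.6 than in ADR1-L2 DV became 4 with scaling by total reads. They became 2 with TMM scaling, where MC2 was at -0.995, and with a pseudocount of 5, where MC2 was at -0.998. A minimum of 100 reads also left 2. No paired analysis was possible because the table holds 1 combined value per genotype, and for the same reason no sample could be left out in turn. BON3, at 22 reads or fewer, is limited by depth.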

Other observations

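AT4G14390, an ankyrin-repeat gene 1961 bases from ACD6 with 80.0% identical coding sequence, had 204 reads in sadr1-26.6, 133 in sadr1-30.4, 477 in ADR1-L2 DV and 127 in Col-0. Its log2 ratio of ADR1-L2 DV over Col-0 was 1.61 [1.33 to 1.91], whereas that of ACD6 was -0.00, or 0.21 with scaling by total reads. ACD6 had 36394 reads in ADR1-L2 DV and 29829 in Col-0, and whether reads of one were counted for the other was not tested.

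The patterns nearest to that of BAP1 over the 4 genotypes, a member chosen here after its values were seen, were those of WRKY51, the peroxidase gene AT2G37130 and WRKY18. WRKY51, a WRKY transcription factor gene, had 281 reads in sadr1-26.6, 198 in sadr1-30.4, 1395 in ADR1-L2 DV and 198 in Col-0 (distance 0.202). AT2G37130 had 189 reads in sadr1-26.6, 131 in sadr1-30.4, 1072 in ADR1-L2 DV and 140 in Col-0 (0.204). WRKY18 had 709 reads in sadr1-26.6, 462 in sadr1-30.4, 2972 in ADR1-L2 DV and 508 in Col-0 (0.217). All 3 were highest in ADR1-L2 DV, as BAP1 was, which a search for like patterns favours.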
